A study of Arabidopsis thaliana with 8 samples.

Results

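In founder cells of Arabidopsis thaliana inflorescences, 523 accessible regions were broader than in the neighbouring cells of the same apices. Accessible sites of 6 libraries were joined into 26792 regions, with overlapping or touching sites counted as the same region. Of these, 18768 held a site in all 6 libraries and are called shared. A shared region was a member when each GFP+ library covered more of it than each GFP− library and the group means differed by at least 200 bp. The 523 members were 2.79% of the shared regions. The same rule turned round gave 627 regions broader in the GFP− cells, or 3.34%, which are called mirror regions below. Covered length in all 6 libraries chose the members, so the widths that follow are a description and carry no test.

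The sites came from ATAC-seq, which maps the DNA that an inserting transposase can reach in chromatin. All cells came from inflorescence apices of ap1 cal double mutants that carry the DRNL::erGFP reporter, in which the promoter of DORNRÖSCHEN-LIKE (DRNL) drives GFP in the endoplasmic reticulum. Apices were turned into protoplasts and sorted into GFP+ lateral organ founder cells (3 libraries) and GFP− cells, their neighbours without reporter signal (3 libraries), and the series design calls the libraries of each group biological replicates. The 2 control libraries of sheared DNA were not analysed here. Both populations share the mutant background, so neither is a wild-type meristem, and the GFP− cells are a mixture of the other cells of the apex. The site lists hold no read counts, so the depth behind each width is unknown, and a site open in more cells of a population cannot be told apart from a site more open in each cell. In every list of values below, the libraries stand in the order of replicates 1, 2 and 3, and ± marks the SD over 3 libraries.

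Founder cells are the small groups of cells on the flank of a meristem from which a leaf or floral organ grows, and auxin maxima mark where they arise. DRNL, a transcription factor of the AP2/ERF family, is an early marker of them. Loss of AP1 and CAL, MADS-box genes of floral identity, turns flowers into repeating inflorescence meristems and so multiplies the founder cells. Regulatory DNA in plants lies mostly in nucleosome-poor stretches beside genes, and a site called from enriched windows can broaden by growing at an edge or by joining with a neighbouring site.

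The members were wide regions that gained a modest length. Their median union width was 1400 bp, against 800 bp for all shared regions and 1300 bp for mirror regions. The median member was covered over 1300, 1300 and 1300 bp in the GFP+ libraries and over 800, 800 and 900 bp in the GFP− libraries. Over all shared regions the same medians were 600, 700 and 600 bp in GFP+ and 600, 600 and 700 bp in GFP−, so members were also broader than the usual shared region in the GFP− cells.

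Differences between group means ran from 200 bp to 2233 bp, with a median of 333 bp and quartiles of 267 and 467 bp. A difference of at least 500 bp was found in 129 members and of at least 1000 bp in 17. The median SD within a group was 100 bp, which is the width of the window on which all sites begin and end. In 263 members the lowest GFP+ library stood a single such window above the highest GFP− library, and in 107 the gap was 300 bp or more. Of the members, 62 (11.9%) were at least 2-fold wider, against 138 mirror regions (22.0%), and the median fold was 1.42 against 1.57.

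**Figure D1:**
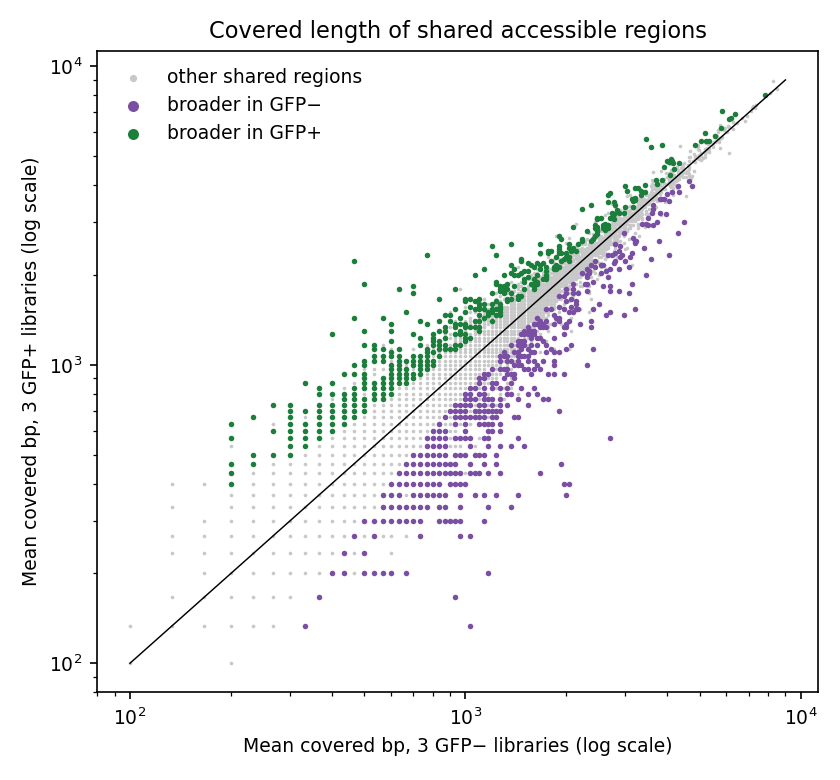
Mean covered length of each shared region in the 3 GFP− libraries (x axis, bp, log scale) and in the 3 GFP+ libraries (y axis, bp, log scale), with the line of equal length. The 523 members (green) lie above the line and the 627 mirror regions (purple) below it, and the purple points reach farther from the line than the green ones; the few regions wider than the line's upper end are not drawn.

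Libraries differed in total covered length, and so did the number of members in which each set the limit. All shared regions together covered 16.7, 17.9 and 16.3 Mb in the GFP+ libraries and 16.6, 16.9 and 17.4 Mb in the GFP− libraries. The group means of 16.98 ± 0.832 and 16.93 ± 0.391 Mb gave an exact two-sided permutation p of 0.9, where the smallest p that 3 against 3 libraries allow is 0.1. The GFP+ library with the least covered length, replicate 3, was alone the lowest of its group in 147 members, and replicate 2, with the most, in 38. Among the GFP− libraries, replicate 3, with the most covered length, was alone the highest in 171 members. With a library left out, the rule has fewer comparisons to meet. The count of members rose to 1062 without GFP+ replicate 3, 1030 without GFP− replicate 3 and 889 without GFP+ replicate 1. Mirror regions numbered 757, 784 and 820 there, and the cause of these changes was not tested. The count of mirror regions rose to 1199 without GFP+ replicate 2 and to 1001 without GFP− replicate 1, where members numbered 605 and 747. With widths scaled to the same total per library there were 906 regions, among them 491 of the 523 members, and 643 mirror regions. Which direction had more regions thus turned with the scaling and with the libraries used.

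DRNL itself, whose promoter drove the sorting reporter, had the region with the fourth largest difference. At chr1:8715301-8721000 (TAIR10), which begins at the right end of the DRNL gene body and runs to AT1G24600 and AT1G24610, the GFP+ libraries covered 5400, 5700 and 5300 bp. The GFP− libraries covered 4100, 3700 and 3800 bp there, a difference of 1600 bp. All 3 GFP+ libraries were at least 1200 bp above all 3 GFP− libraries. The GFP− cells kept a short island of sites close to DRNL and a long block near the other gene, and the founder cells filled most of the space between, gaining 933 bp in internal gaps and 667 bp at the DRNL side. Windows covered in all GFP+ and no GFP− library came to 1100 bp, of which 78 bp lay in the DRNL gene body and none began more than 1723 bp from it.

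The other 2 shared regions within 1000 bp of DRNL were not members. At chr1:8711201-8713600 the GFP+ libraries covered 1000, 1700 and 1500 bp and the GFP− libraries 2000, 1500 and 2100 bp, so the groups overlapped and the mean was higher in GFP−. Over chr1:8713701-8714400, at the left end of the gene, coverage was 700 bp in 5 libraries and 500 bp in GFP− replicate 3. Any DRNL promoter sequence in the reporter transgene shares these positions, and the site lists cannot tell the transgene from the native locus.

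CAL, a gene mutated in all samples, held 2 members, both mostly or wholly inside its gene body (chr1:9099994-9103644). In the wider of them, chr1:9101001-9103000, the GFP+ libraries covered 1800, 2000 and 1400 bp and the GFP− libraries 800, 400 and 900 bp. At chr1:9099601-9100900 they covered 1200, 1200 and 1100 bp against 800, 500 and 300 bp. This second region also overlaps AT1G26300 and lies within 1000 bp of AT1G26290. Of its 300 bp covered in all 6 libraries, 7 bp lay in the CAL gene body. In both regions the groups were clearly apart, and all 500 bp and all 300 bp of windows covered only in GFP+ cells lay in the CAL gene body. Another shared region at the right end of CAL differed by 133 bp and was not a member.

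AP1, the other mutated gene, had no member. Its region at chr1:25981901-25983000 covered 900, 1100 and 500 bp in GFP+ and 500, 300 and 500 bp in GFP−. GFP+ replicate 3 fell to the level of the GFP− libraries, so that the region was no member despite a mean difference of 400 bp. Its second region differed by 167 bp, with overlapping groups. The labels used here do not describe the ap1 and cal lesions at the sequence level, and their effect on mapping at these genes was not tested.

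**Figure D2:**
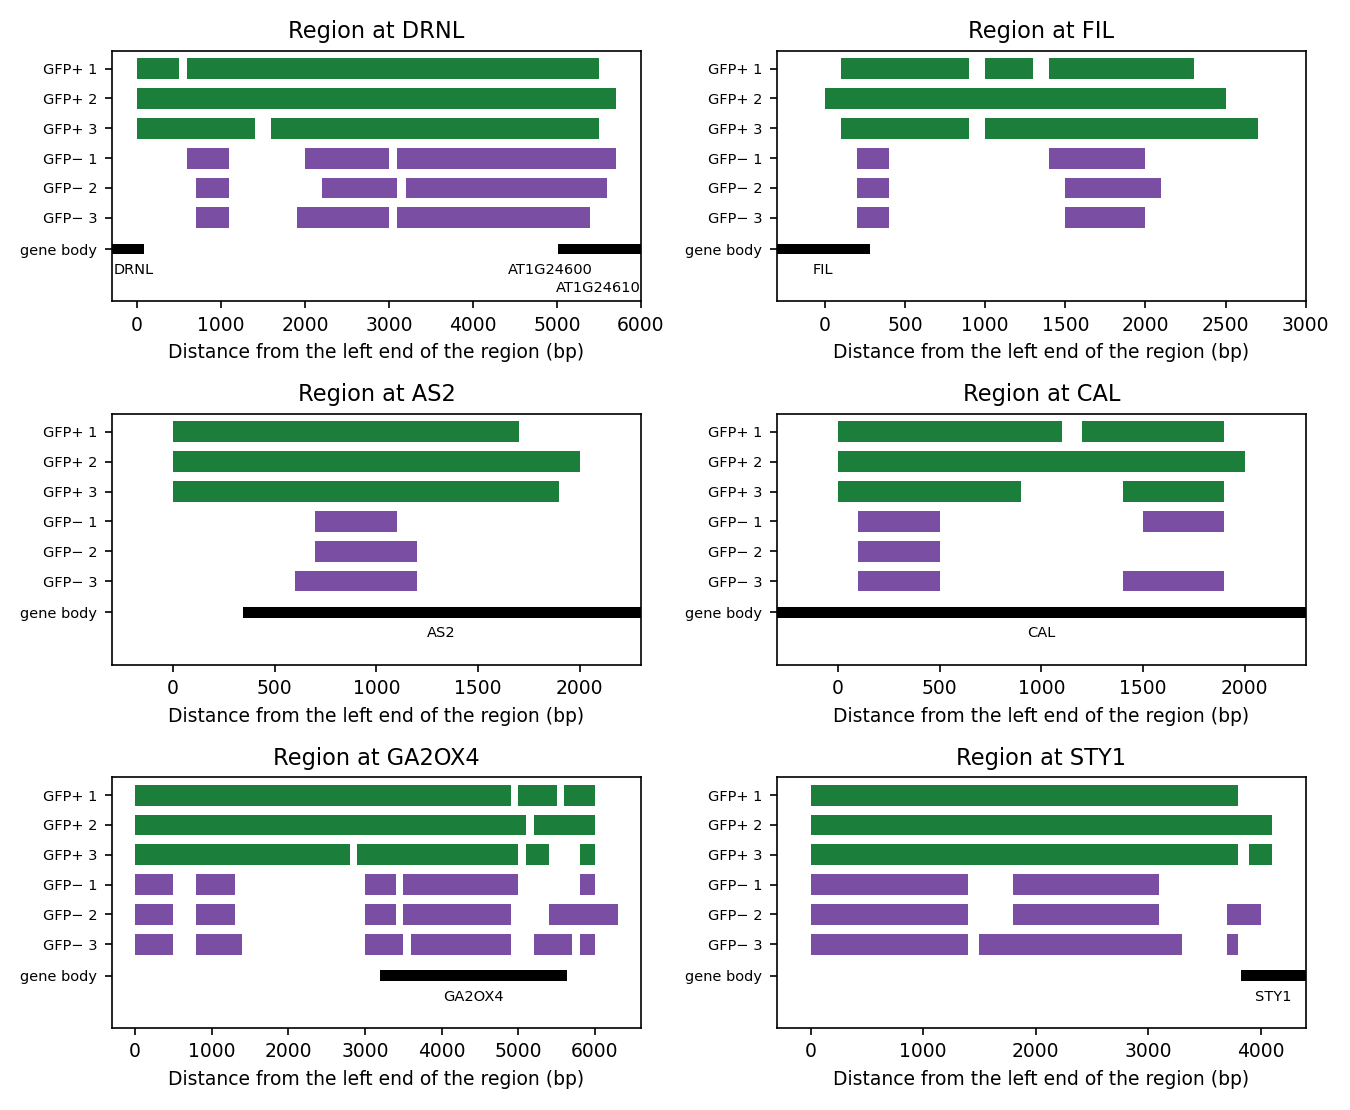
Accessible sites in 6 members, at DRNL, FIL, AS2, CAL, GA2OX4 and STY1, by library (green, GFP+; purple, GFP−), against distance from the left end of each region in bp, with gene bodies in black, cut at the panel edge. At DRNL, FIL, GA2OX4 and STY1 the GFP− libraries show separate islands where the GFP+ libraries show long sites, and at AS2 a narrow GFP− site grows at both edges.

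Genes were next read against 14 lists of known regulators and cell type markers. The lists were chosen with earlier results of these data known, so their counts describe the members and support nothing beyond them. A gene counted when a member lay within 1000 bp of its body. Of all 27444 protein-coding genes, 720 (2.62%) had a member and 929 (3.39%) a mirror region. A short list in which no gene has a member, or no gene a mirror region, is thus near these shares. Of 341 listed genes found in the annotation, 55 (16.1%) had a member and 19 (5.57%) a mirror region. No listed gene had both, but 55 genes are too few to tell this from the 3.39% of all genes. Without GFP+ replicate 3 the 55 became 83, and with a 400 bp minimum 32. The 62 members at listed genes had a median difference of 450 bp, against 333 bp over all members, and 8 of them were among the 20 with the largest differences.

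Regulators of organ initiation made up the list with the largest share: 7 of 14 genes had a member and none a mirror region. They were DRNL, LEAFY (LFY), AINTEGUMENTA (ANT), AHP6, LMI1, UFO and BOP2. At AHP6, which encodes a pseudo-phosphotransfer protein that inhibits cytokinin signalling, the region chr1:30133001-30134000 covered 700, 1000 and 900 bp in GFP+ and 400, 300 and 300 bp in GFP−. The founder cells thus covered more than 2-fold the mean length of their neighbours there, and the 300 bp covered only in GFP+ lay 418 to 618 bp from the gene body. ANT, an AP2-type factor that promotes organ growth, lies 514 bp from a very wide region, chr4:17732001-17739000. It was covered over 6900 bp in each of the 3 GFP+ libraries and over 6500, 6500 and 6100 bp in GFP−, a small change of an already broad domain. LFY, the floral meristem identity factor, shares chr5:24841701-24847500 with GUT1 and AT5G61865; like the ANT region it gained mainly in internal gaps, with 5700, 5600 and 5500 bp in GFP+ against 5300, 5400 and 5300 bp in GFP−. Both groups were close here, 100 bp apart at the nearest, and no window was covered in all GFP+ and no GFP− library.

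UFO, an F-box partner of LFY, had a member at chr1:11034901-11036000 with 900, 1100 and 1000 bp in GFP+ and 500, 500 and 800 bp in GFP−. LMI1, a homeodomain target of LFY, had chr5:1004301-1005000, covered over 700, 700 and 600 bp in GFP+ and 400, 400 and 500 bp in GFP−. For both genes the groups were 100 bp apart at their nearest, so these are members by the smallest gap that windows allow. BOP2, which encodes a BTB-ankyrin protein that acts at organ bases, had a narrow change at the gene itself: 900, 1000 and 900 bp against 700, 600 and 700 bp in chr2:17240401-17241400. The third largest difference of all members lay farther off, at chr2:17243501-17245800, for which BOP2 is the nearest protein-coding gene at 2892 bp. That region was covered over 2200, 2300 and 2200 bp in GFP+ and over 800, 200 and 400 bp in GFP−. It had the highest fold of all members, 4.79, and grew almost wholly at its right edge, by 1567 bp, on the side away from BOP2.

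Organ polarity regulators had 9 of 19 genes with a member, at 14 regions with a median difference of 500 bp, and none with a mirror region. The YABBY genes, which specify the lower or abaxial side of organs, were 4 of the 9. FILAMENTOUS FLOWER (FIL) had chr2:18630501-18633200, covered over 2000, 2500 and 2500 bp in GFP+ and over 800, 800 and 700 bp in GFP−. The GFP− libraries kept 2 small islands there, and the founder cells filled the gap, 967 bp of the difference of 1567 bp being internal. At the other end of FIL, chr2:18628001-18629000 covered 600, 900 and 600 bp against 300, 300 and 300 bp. YAB3, a paralog that acts with FIL, had a pair of members at its right end, of which chr4:76101-77100 covered 1000 bp in every GFP+ and 500 bp in every GFP− library. The second YAB3 region, chr4:75001-75900, covered 800, 900 and 700 bp in GFP+ against 400, 500 and 300 bp in GFP−. In all 4 of these regions the groups stood at least 200 bp apart.

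YAB5 held its member inside the gene, at chr2:11304701-11305800, with 1000, 1100 and 1100 bp in GFP+ and 400, 600 and 600 bp in GFP−. YAB2 had one beside the gene, at chr1:2680001-2681500, with 1200, 1500 and 1500 bp against 800, 700 and 1000 bp. Both grew mainly at the left edge. Regulators of the upper or adaxial side had members too. Asymmetric Leaves 2 (AS2), a LOB-domain factor, had chr1:24397801-24399800, covered over 1700, 2000 and 1900 bp in GFP+ and only over 400, 500 and 600 bp in GFP−. The site grew by 667 bp at the left and 700 bp at the right edge, 3.73-fold in all, and 758 of the 1100 bp covered only in GFP+ lay in the AS2 gene body. A second region at AS2, chr1:24396501-24397700, covered 1100, 1000 and 1000 bp against 600, 400 and 600 bp.

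The class III HD-ZIP genes PHABULOSA (PHB) and PHAVOLUTA (PHV), which promote adaxial fate, had a pair of members each, at opposite ends of the gene. For PHB, chr2:14643901-14647500 covered 2700, 3600 and 3000 bp in GFP+ and 2500, 2400 and 2500 bp in GFP−, with GFP+ replicate 2 far above the others. Its second region, chr2:14638001-14639700, covered 1500, 1600 and 1600 bp against 1000, 1100 and 1200 bp. For PHV, chr1:10794901-10796100 covered 1000, 1200 and 1200 bp in GFP+ and 500, 500 and 900 bp in GFP−. The other, chr1:10800801-10802400, covered 1500, 1600 and 1500 bp against 1200, 900 and 1300 bp and changed wholly by closing internal gaps. KANADI 3 (KAN3), of a family that promotes abaxial fate, had chr4:9848601-9849700 with 1000, 1100 and 900 bp in GFP+ and 800, 600 and 500 bp in GFP−. Members thus lay at adaxial and at abaxial regulators, and 9 of the 19 genes on the list had one. At KAN3 and in the first PHV region the groups were 100 bp apart at their nearest. LMI1 was also on this list.

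The SHI and style list, of zinc-finger activators of auxin synthesis and bHLH factors of the style, had 6 of 17 genes with a member and a single mirror region gene, HEC2. The 6 were STY1, STY2, SHI, LRP1, SRS7 and HEC1. At STY1 the region chr3:18960301-18964400 covered 3800, 4100 and 4000 bp in GFP+ and 2700, 3000 and 3300 bp in GFP−. STY2 had its larger change in chr4:17158501-17160100, 856 bp from the gene, with 1400, 1600 and 1500 bp against 600, 600 and 800 bp. SRS7 shares chr1:6836501-6838700 with CNGC8, a cyclic nucleotide-gated channel gene, and the site covered 1700, 2200 and 1600 bp in GFP+ and 300, 800 and 1000 bp in GFP−. Among these 3 regions the GFP− libraries of SRS7 were the most spread, with an SD of 361 bp.

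The meristem list, which also holds genes of organ margins and organ growth, had 5 of 20 genes with a member. These were PNY, ATH1, WOX1, WOX3 and NUB, and a single gene, WOX4, had a mirror region. At WOX3, a homeobox gene of organ margins, chr2:12260201-12262300 covered 2100, 2100 and 1800 bp in GFP+ and 1000, 1200 and 1000 bp in GFP−. ATH1, a BELL homeodomain gene, had chr4:15917601-15919500 with 1700, 1900 and 1800 bp against 900, 800 and 1100 bp. These were both wide separations, of 600 bp at the nearest libraries. At WOX1 the change was small, 800, 700 and 700 bp against 500, 400 and 600 bp in chr3:6161501-6162400. NUB, a zinc-finger gene of organ growth, shares chr1:4599601-4601300 with AT1G13410, covered over 1600, 1500 and 1500 bp in GFP+ and over 1000, 400 and 1400 bp in GFP−, where GFP− replicate 3 came within 100 bp of the GFP+ libraries. PNY, a BELL partner of the KNOX factors, shares chr5:399901-401000 with PRA1.A1, with 1000, 1000 and 900 bp against 600, 700 and 700 bp.

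Boundary genes gave 3 of 15, CUC3, RAX2 and BOP2, against PTL with a mirror region. The CUC3 region, chr1:28673901-28674600, sat exactly on the threshold with 500, 700 and 500 bp in GFP+ and 300, 400 and 400 bp in GFP−. RAX2, a MYB gene of axillary meristems, shares chr2:15483501-15485900 with AT2G36885, covered over 2300 bp in every GFP+ library and 2100, 2000 and 2000 bp in GFP−. These are small changes beside those at the polarity genes. Floral identity and flowering time genes gave 5 of 35 (CAL, SEP2, AGL6, AG and SOC1), against SPL3 and TOE1 with mirror regions, and AGL6 and SOC1 share the same member. SEP2, a MADS-box gene of all floral organs, covered 1400 bp in every GFP+ library and 1300, 1100 and 1200 bp in GFP− at chr3:467001-468400, again exactly at the threshold.

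Hormone and growth genes followed. Auxin genes gave 7 of 51, among them YUC4, WAG1, WAG2 and ARF8, with a median difference of 283 bp, and 4 had mirror regions (PIN3, PIN4, IAA1 and IAA3). YUC4 encodes an enzyme of auxin synthesis, and WAG1 and WAG2 are protein kinases that act on auxin transport. Cytokinin genes gave 3 of 31 (LOG3, LOG4 and AHP6) against LOG5 with a mirror region. Organ growth genes gave 4 of 27 (GRF3, GRF8, TCP2 and CYP78A5), with no mirror region. At CYP78A5, the KLUH cytochrome P450 that promotes organ growth from the organ margin, chr1:4704401-4707200 covered 2400, 2800 and 2400 bp in GFP+ and 1000, 1400 and 1700 bp in GFP−. Every GFP+ library was at least 700 bp above the GFP− libraries, and 867 bp of the 1167 bp difference lay at the left edge.

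Epidermal genes gave 5 of 27 (HDG1, HDG11, CER1, GL1 and ERL2), and CER6 had a mirror region. For cell cycle genes the count was 2 of 25 (CYCD1;1 and CYCD6;1), against KRP2, and for gibberellin and light genes 2 of 24 (GA20OX2 and GA2OX4), against GA20OX3. Vascular and photosynthesis genes, markers of other cell types of the apex, had mirror regions alone. None of 20 vascular genes had a member, while NST2, SUC2 and PXY (15%) had mirror regions. None of 22 photosynthesis genes had a member, while RBCS1A, RBCS3B and LHCA2 (13.6%) had mirror regions. Over all genes the shares were 2.62% with a member and 3.39% with a mirror region. Lists this short do not tell an absence of members from the share over all genes.

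**Figure D3:**
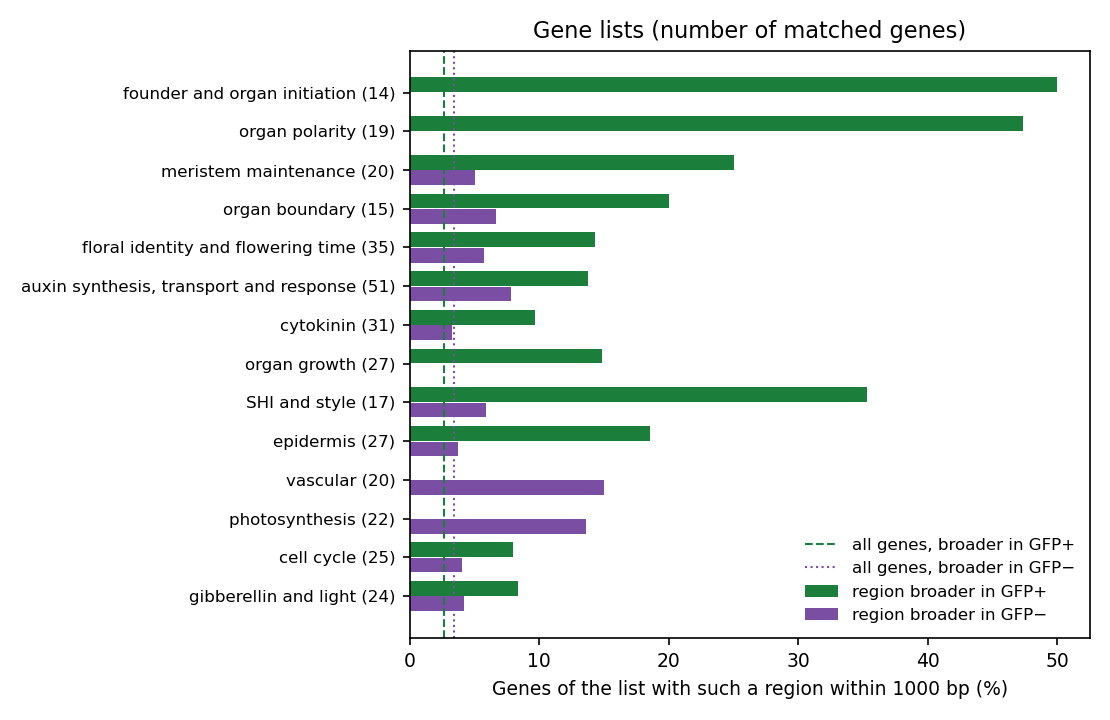
Percent of the genes of each list (number of matched genes in brackets) with a region broader in GFP+ (green bars) or in GFP− cells (purple bars) within 1000 bp; the dashed and dotted lines mark the 2.62% and 3.39% of all protein-coding genes. The organ initiation list (7 of 14) and the polarity list (9 of 19) reach the highest green bars, and the vascular and photosynthesis lists have purple bars alone.

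The member with the largest difference lay at GA2OX4, which encodes a gibberellin 2-oxidase that inactivates gibberellin. In chr1:17695401-17701700 the GFP+ libraries covered 5800, 5900 and 5400 bp and the GFP− libraries 3100, 3700 and 3600 bp. The groups stood 1700 bp apart at their nearest libraries, the widest gap of all members. The GFP− cells had islands at the left end and over the gene, and the founder cells filled the space between with a run of 1400 bp that no GFP− library covered. All 1800 bp covered only in GFP+ lay outside the gene body, 198 to 2598 bp from it. GA3OX3, an enzyme of the last step of gibberellin synthesis, also had a wide member: chr4:11524301-11527800 covered 3300, 3400 and 3300 bp in GFP+ and 2400, 2000 and 2300 bp in GFP−.

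Several of the largest members lay at genes outside the lists. Beside AT4G37560, 117 bp from the gene body, chr4:17648801-17654300 covered 5500, 5500 and 5100 bp in GFP+ and 3300, 3700 and 3700 bp in GFP−, a difference of 1800 bp. At CLE18, a gene of the CLE family of signalling peptides, chr1:24625201-24628300 covered 2600, 2800 and 2100 bp against 1100, 1100 and 1400 bp and gained 1400 bp in internal gaps. At AT4G23740 and within 1000 bp of CRF2, a cytokinin response factor of the AP2/ERF family, chr4:12368901-12376600 covered 6900, 7400 and 7000 bp in GFP+. The GFP− libraries covered 5100, 6200 and 6200 bp of it, so replicate 1 was well below the rest and enlarged the mean difference of 1267 bp. AT5G51795 had the tightest GFP+ values among the largest members, 1800 bp in every library against 400, 700 and 800 bp in chr5:21044101-21045900. TGA9, a bZIP factor of anther development, had chr1:2624601-2627000, with 2300, 2100 and 2400 bp against 1400, 1300 and 1700 bp. In each of these 5 regions the groups were at least 400 bp apart.

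**Figure D4:**
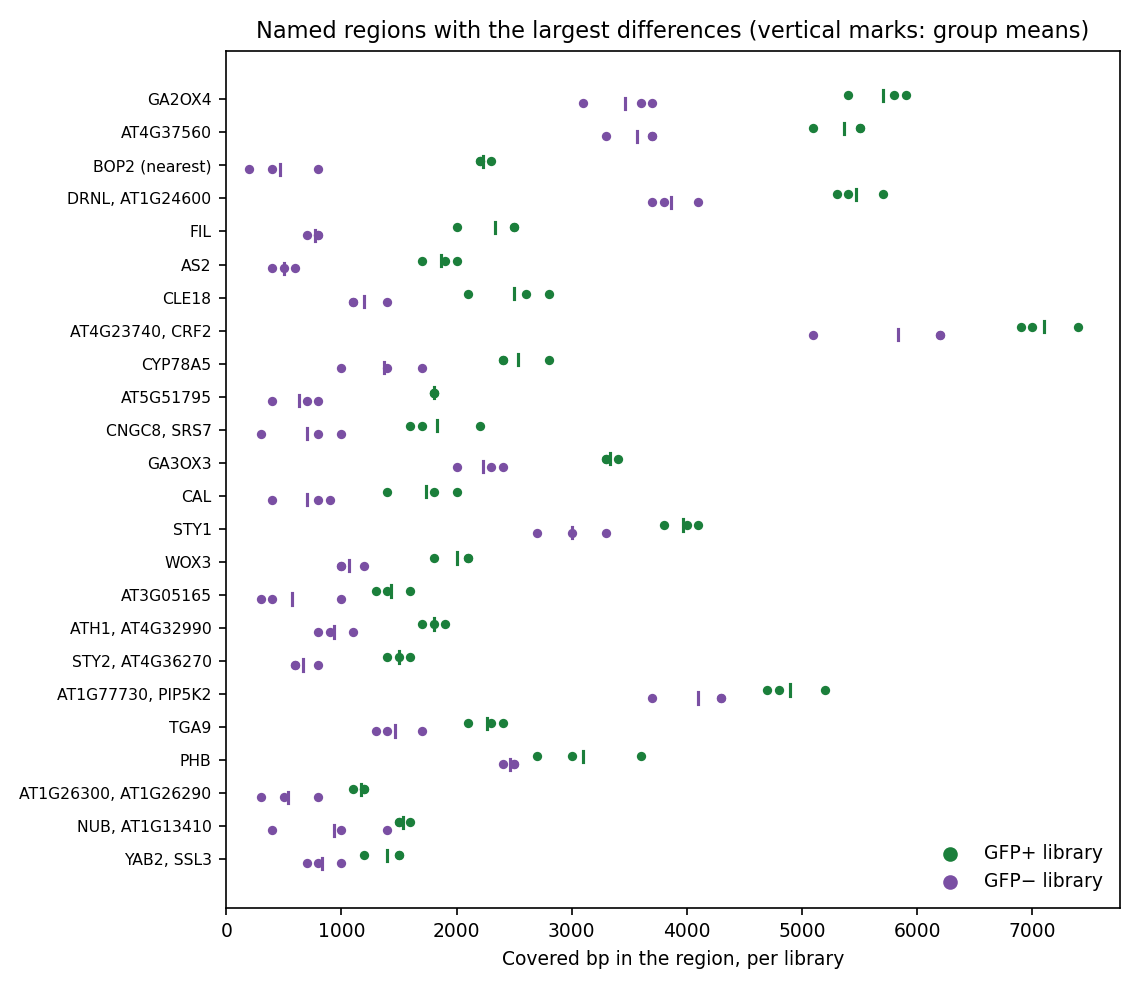
Covered bp per library (green points, GFP+, purple points, GFP−, vertical marks, group means of 3 libraries) in the 24 named members with the largest differences, from 2233 bp at GA2OX4 to 567 bp at YAB2. Labels give up to 2 genes within 1000 bp, except for the region labelled by its nearest gene, BOP2, 2892 bp away. The groups do not overlap in any of them, as the rule asks, and the gap is widest, 1700 bp, at GA2OX4 and narrowest, 100 bp, at NUB.

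The gain of a member could lie at either edge or inside it. The difference of each region was split exactly into what was gained at its left end, at its right end and in internal gaps. More than 50% came from the left edge in 201 members (38.4%), from the right edge in 190 (36.3%) and from internal gaps in 96 (18.4%), and 36 (6.88%) were mixed. With more than 75% asked for, the left edge held 24.3%, the right edge 21.4% and internal gaps 10.5%, and 43.8% were mixed. Left and right were about equal, as they were among mirror regions (254 and 266). Closing of internal gaps was the main form in 71 mirror regions (11.3%). Of the summed difference of 214.7 kb, 24.3% was internal in members, against 11.7% of 281.8 kb in mirror regions. No test of this difference was made, since regions are not replicates and the split uses the contrast that chose them.

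Internal closing was the main form in 6 of the 10 members with the largest differences, at GA2OX4, AT4G37560, DRNL, FIL, CLE18 and AT4G23740. These 6 were wide, from 2700 bp at FIL to 7700 bp at AT4G23740, against a median of 1400 bp over all members. The ranking used the difference that was then split, and whether the form follows width was not tested. With a minimum difference of 400 bp internal closing rose to 26.7% of regions. A single site made up the region in 69.0%, 77.6% and 62.1% of members in the GFP+ libraries and in 61.8%, 60.4% and 52.0% in the GFP− libraries. Each GFP− share was below each GFP+ share in members, but narrowly. A single site was found in 323 members in GFP− replicate 1 and in 325 in GFP+ replicate 3. The rule asks for less coverage in each GFP− library, and a gap between sites is a way to meet it. This order of the shares is therefore tied to the choice of members. Mirror regions had 71.6%, 65.2% and 67.8% in GFP+ and 64.3%, 69.2% and 67.5% in GFP−, so there the groups overlapped. Over all shared regions the share was between 83.2% and 87.6% in every library. In only 17 members did each GFP+ library have a single site where each GFP− library had several, and the converse held in 14 mirror regions.

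Fully gained DNA was a small part of the members. Windows covered in all 3 GFP+ and no GFP− library summed to 84.2 kb, beside 559.7 kb covered in all 6 libraries. Such windows were present in 398 members and absent in 125, whose difference came from windows that some libraries of a group shared with the other. The longest unbroken run of them reached 500 bp or more in 12 members. Only 3 members, the regions nearest BRX, CYCD5;1 and GSTU8, had no window common to all 6 libraries; they are named for this after their values were seen.

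The authors' site scores placed the members high within each list, also in the cells where they were narrower. The median member's best site stood at the 78.5th, 82.1st and 80.3rd percentile of its list in the GFP+ libraries and at the 67.6th, 68.4th and 71.2nd in GFP−. All shared regions had medians from the 58.0th to the 62.1st percentile in GFP+ and from the 60.2nd to the 64.4th in GFP−. The mirror regions stood at the 49.0th to 52.8th percentile in GFP+ libraries, below the shared regions, whereas the members in the GFP− libraries stood above them. The score comes from the same reads as the width, and its scale is not stated.

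Position relative to genes did not enter the rule. Of the members, 398 (76.1%) overlapped the body of a protein-coding gene, 463 (88.5%) overlapped or lay within 1000 bp of one, and 60 (11.5%) lay farther away. All shared regions overlapped a body in 80.7% and lay farther than 1000 bp in 8.43%, and shared regions matched to the members in union width did so in 84.2% and 7.06%. The mirror regions were like the members, at 74.8% and 10.4%. No test of these shares was made, since regions are not replicates.

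Position was also counted by base pairs. Of the DNA covered in all 6 libraries, 23.3% lay in gene bodies and 43.6% within 1000 bp of them in members, and the share in bodies was 32.6% in mirror regions and 32.1% in shared regions of like width. The part more than 1000 bp from any protein-coding gene was 33.1%, against 23.3% in mirror regions and 23.2% in shared regions of like width. Gained windows of the members lay in gene bodies for 29.5%, within 1000 bp of them for 36.3% and farther for 34.3%. Beside the common core, the gained DNA had a larger share in gene bodies and a smaller share in the flanks, with no test made. Strand and exons are not in the gene table used, so upstream and downstream sides, exons and introns could not be separated.

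Members lay on all 5 chromosomes: 141, 83, 91, 75 and 133 on chromosomes 1 to 5. The share on chromosome 1 was 27.0%, near the 26.2% of all shared regions, and the share on chromosome 5 was 25.4%, beside 23.4%. A single protein-coding gene lay within 1000 bp of 223 members, 2 genes of 199 and 3 or more of 41, so 240 members lay near several genes. Another member lay within 5000 bp of 95 members (18.2%), beside 15.2% of mirror regions. At 25 genes there were 2 or more members, among them AS2, FIL, YAB3, PHB, PHV, CAL, STY2, YUC4 and CLE18, and AT5G02540 had 3. Of the 720 genes with a member, 13 also had a mirror region. Of all 27444 protein-coding genes, 929 (3.39%) had a mirror region, and no test of the overlap was made.

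The 60 members farther than 1000 bp from a protein-coding gene lay at a median of 1880 bp from the nearest such gene and at most 14943 bp. The nearest gene was on a list in 5 cases, BOP2, AN3, WUS, IAA17 and WOX3. The region nearest WUSCHEL (WUS), the homeobox gene that maintains stem cells, was chosen for naming after its values were seen: chr2:7806401-7807300 lay 1571 bp from WUS and covered 900, 900 and 800 bp in GFP+ and 400, 300 and 500 bp in GFP−. Another named in this way lay 1756 bp from SUPERMAN (SUP), a zinc-finger gene of the stamen boundary, with 2000, 2400 and 2200 bp against 1800, 1500 and 1800 bp in chr3:8238101-8240500. Both groups were at least 200 bp apart in both regions. With a flank of 2000 bp, 95.0% of members were near a protein-coding gene.

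The authors' deposited table lists genes with differential sites, made from the same reads, so its overlap with the members is a description. The column for sites raised in founder cells in the authors' deposited table holds 121 genes, of which 113 matched a protein-coding gene. A member lay within 1000 bp of 53 of these genes of the authors' deposited table (46.9%), and a mirror region of 1 (0.885%). Over all protein-coding genes these shares were 2.62% and 3.39%. Seen from the members, 53 of 720 genes (7.36%) are in that column of the authors' deposited table, so most genes with a member are not. Of all 27444 protein-coding genes, 113 are in it. In the authors' deposited table's column for sites lowered in founder cells, 375 genes matched, with a member at 3 (0.8%) and a mirror region at 142 (37.9%). The shares over all genes are again 2.62% and 3.39%. Members at genes raised in the authors' deposited table had a median difference of 533 bp, beside 333 bp elsewhere, and made up 10 of the 20 largest. Of these 20, the regions nearest AT4G37560, BOP2, CLE18 and AT4G23740, all among the largest 10, are at genes outside that column of the authors' deposited table.

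Few genes had both a broadened and a wholly new region. The series held 112 regions with a site in all 3 GFP+ and no GFP− library, at 105 genes. Only 3 genes, AT1G13230, AT5G44050 and CYP87A2, had both such a region and a member, which is 2.86% of the genes with a founder-only region and 0.417% of the genes with a member. The 2.86% is near the 2.62% of all genes that had a member.

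Widths were then read in libraries that did not choose the regions, although the limits of the regions were joined from all 6 libraries. With limits joined from the 4 choosing libraries alone, the chosen regions were also above all regions in the 9 pairs. The rule was applied to 2 GFP+ and 2 GFP− libraries, and the chosen regions were measured in the remaining pair, for all 9 pairs. Between 843 and 1817 regions were chosen. The held-out GFP+ library was wider in 42.7% to 79.8% of them, with a mean of 59.7%, and narrower in 7.71% to 33.4%. Over all regions with a site in the choosing libraries the GFP+ library was wider in 21.1% to 45.8%, with a mean of 33.0%. It was narrower in 20.3% to 40.1% of them, with a mean of 31.0%, and the rest were ties. The chosen regions were above all regions in each of the 9 pairs, by 19.6 to 36.3 percentage points. All regions were not matched to the chosen ones in width, so the excess is not a measure of direction alone. Regions chosen by the rule turned round were wider in the held-out GFP− library in a mean of 64.8%. Their mean difference, GFP+ minus GFP−, was -223 bp. The pairs share libraries and are not independent, so no p is given.

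The size of the difference shrank in the held-out pairs. The mean was 168 bp, from 35.3 to 336 bp by pair, against 351 bp in the libraries that chose the regions and 1.23 bp over all regions. A held-out difference of at least 200 bp was met by 45.2% of the chosen regions, beside 18.0% of all regions. The result moved with the library held out: the mean share was 73.6% with GFP+ replicate 2, which has the most covered length, 55.4% with replicate 1 and 50.1% with replicate 3. With widths scaled to the same total the mean was 71.3% beside 57.8% for all regions, where scaling turns ties into small differences. The widths of the 523 members, chosen on all 6 libraries, could not be read in a library outside the choice.

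**Figure D5:**
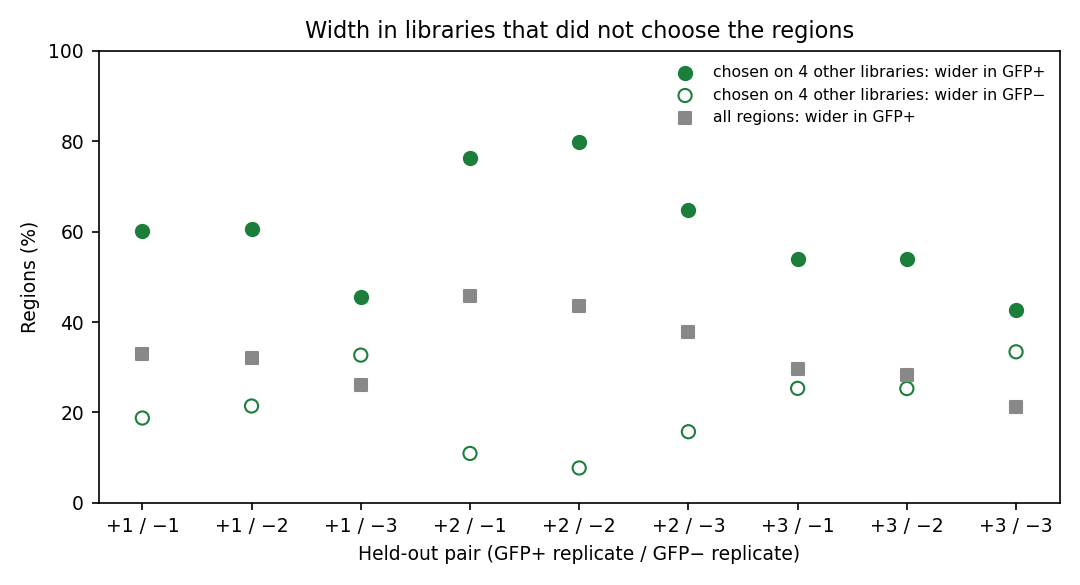
Percent of regions (y axis) that were wider in the held-out GFP+ library (filled green) or in the held-out GFP− library (open green), among regions chosen on the 4 other libraries, and wider in GFP+ among all regions (grey squares), for each of the 9 held-out pairs (x axis). The filled circles lie above the squares in all 9 pairs, and lowest, at 42.7%, when replicate 3 of both groups was held out. Region limits were joined from all 6 libraries.

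The threshold cut through a continuous range. Exactly 200 bp was found in 46 members, and 191 more regions had separated groups with smaller differences, from 100 to 167 bp. In all, 714 shared regions (3.8%) had every GFP+ above every GFP− library and 782 (4.17%) the reverse. Just inside were the regions at ARR11, a cytokinin response regulator (1100, 1100 and 1200 bp against 900, 900 and 1000 bp), and at RLP51, a receptor-like protein (1200, 1100 and 1100 bp against 1000, 800 and 1000 bp). Just outside, at 167 bp, were regions at AT1G07590 and IDD16 and a region 2408 bp from AT1G25570, for example 1300 bp in each GFP+ library and 1200, 1100 and 1100 bp in GFP− at IDD16.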

How the data were processed

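ATAC-seq libraries of sorted protoplasts were analysed from the deposited site lists, 1 per library. The authors used SICER, bedtools 2.17.0, Picard 1.105, SAMtools 0.1.19 and BWA 0.7 on the TAIR10 genome, per the submitters' processing notes. Which tool did what, any read shift for the transposase, filters and the use of the sheared controls are not given there. The deposited score of each site is the authors' own, on a scale not stated, and served only to rank sites within a list. Sites start on multiples of 100 and were read as whole 100 bp windows, and positions are printed counting from 1. The lists hold no counts, so depth is unknown and no interval was computed.

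Groups came from the sample titles. Sites were joined, members chosen and widths split with Python 3.11.15, numpy 2.4.6 and pandas 2.3.3, and the exact permutation test with scipy 1.17.1. The code was tested on simulated site lists with planted regions. Genes came from the RefSeq table of TAIR10.1, which holds no strand or sequence, so no sequence is shown. Only protein-coding genes were used, also for gene bodies, flanks, nearest genes and distances. The authors' series table holds gene identifiers alone (unit: other, deposited by the authors without values).

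The members and the gene lists were chosen with earlier results of these data known. Named regions were those at DRNL, AP1 and CAL, the 10 members with the largest difference and with the largest gap, up to 30 at listed genes in list order, the 3 on each side of the threshold, and up to 15 at genes raised in the authors' deposited table; further list genes are named only to account for their list. Replicate numbers were not taken as pairs, since deviations of same-numbered libraries correlated at 0.139, 0.0816 and 0.0224. Alternatives changed the threshold, the joining of sites, the site number, scaling, separation, flank and libraries.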

Additional observations from a re-analysis of the deposited data

How the results depend on the processing

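Settings were changed one choice at a time; those for position other than the flank, for list genes and for held-out regions joined from the 4 choosing libraries were chosen after seeing the data. The 523 members became 202 at 400 bp, 906 with scaled widths and 1462 without separation of the libraries, and the 627 mirror regions became 300 at 400 bp, 643 scaled and 1398 without separation, so that members outnumbered mirror regions when scaled, without separation and without GFP+ replicate 1, GFP+ replicate 3 or GFP− replicate 3. Leaving out a library in turn gave 605 to 1062 members and 757 to 1199 mirror regions, and 490 to 509 of the 523 members were among those called; with equal numbers of top-scoring sites 476 were. Gene bodies were overlapped by 71.8% at 400 bp, 82.7% with sites up to 200 bp apart joined, 79.7% scaled, 80.4% without separation and 75.2% to 81.5% with a library left out. The share within 1000 bp of a protein-coding gene was 91.1% with top-scoring sites and 87.0% to 91.1% with a library left out. It was 82.8% with a 500 bp and 95.0% with a 2000 bp flank, beside 87.2% and 96.0% of shared regions. Listed genes with a member numbered 32 at 400 bp, 106 without separation and 56 to 83 with a library left out. Left-edge gains were 28.7% and internal gains 26.7% at 400 bp. When a kind had to hold over 75% of the difference, left, right, internal and mixed gains were 24.3%, 21.4%, 10.5% and 43.8%. Internal gains were 15.1% to 18.3% with a library left out. The difference in total covered length, 0.0501 Mb, ranged from -0.425 to 0.346 Mb. It turned to -0.425 Mb without GFP+ replicate 2 and to -0.115 Mb without GFP− replicate 1. With fewer libraries the rule has fewer comparisons to meet, and the cause of the changed counts and of the other changes was not tested. The share wider in held-out libraries, 59.7%, lay between 52.9% and 71.3% under 5 alternatives. Of 368 width differences of named regions under alternatives, 352 moved by less than the SD, 16 moved by more and none changed sign.

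Under the replicate block, which asks only that each GFP+ library exceed the GFP− library of the same number, there were 800 members, including all 523, and 918 mirror regions, and 79.8% of these members overlapped a gene body. The numbers do not pair the samples by the labels, although 5 of 6 libraries correlated best with their own number, so the block is only a looser rule.

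Planned descriptions of promoter motifs and of the upstream or downstream side of each gain were not run, since no sequence or strand was at hand. Windows of 100 bp limit the widths, and without depth a member that rests on a gap of 100 bp cannot be told from a shift of a single window.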
